A study of Mus musculus with 6 samples.

Results

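The T cell receptor α chain (TCRα) variable gene segments, whose symbols start with Trav, were examined in RNA sequencing of CD8+ T cells from WT and BIT mice. The 130 genes of this name among the 78275 in the deposited table were taken by their symbol, without use of any measured value, and each was read as its share of all Trav counts of a library. Of these 130 genes, 110 were annotated as functional variable genes and 20 as pseudogenes, and their symbols placed them in 23 numbered families and in 56 plain, 40 D and 34 N copies.

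RNA was sequenced from CD4-CD8+ TCRβhigh T cells of 3 WT and 3 BIT mice, 9 to 10 weeks old and labelled male, all on the C57BL/6 background, with 1 library per mouse and a sort purity given as above 98%. BIT mice are homozygous for an allele that makes the thymoproteasome subunit β5t (Psmb11), normally made in cortical thymic epithelial cells alone, in place of the immunoproteasome subunit β5i (Psmb8), with the Psmb11 sequence placed in the first coding exon of Psmb8. The replacement is carried in all cells that use the Psmb8 promoter, so that effects within the T cells and effects of the cells that select them cannot be told apart here, and the mice came from 1 of several lines unless stated otherwise. Lymph nodes are the labelled tissue, although the protocol in the labels adds spleens.

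A TCRα chain gene is assembled in the thymus when one Trav segment is joined to one Traj segment, upstream of the constant gene Trac, by the RAG recombinase. Each Trav segment carries a recombination signal directly downstream of its coding part, and the joined segment fixes the first and second antigen-contacting loops of the α chain, while the junction forms the third. Because the same locus can be rearranged again until the receptor is positively selected, with more distal Trav segments used in later rounds, the Trav genes present in mature T cells reflect both the order of the locus and selection. In the mouse a large part of the locus has been copied, and the letters D and N in a symbol mark genes in the additional copies.

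All 130 genes lay on the plus strand of chromosome 14 in GRCm39, over 1549.751 kb from chr14:52665385 to 54215135, and 177.327 kb separated the last of them from the first Traj segment. Gene models held between 155 and 595 exonic bases, usually as a leader exon and a V exon. The last 27 bases of the V exon of genes with large shares or small p-values are given below from the GRCm39 sequence, with the codon of the conserved cysteine before the junction in capitals. They are shown because several of these genes end in the same bases, which bears on how their reads could be told apart.
Trav16, chr14:53981136-53981162: agtatatttcTGTgctatgagagaggg
Trav16n, chr14:53589052-53589078: agtatatttcTGTgctatgagagaggg
Trav12d-3, chr14:53167713-53167739: tgccctgtactacTGTgctctgagtga
Trav12n-3, chr14:53478675-53478701: tgccctgtactacTGTgctctgagtga
Trav12-2, chr14:53854345-53854371: tgccctgtactacTGTgctttgagtga
Trav13-4-dv7, chr14:53995352-53995378: caggcacttatctcTGTgctatggaac
Trav13d-1, chr14:53089297-53089323: caggcacttatctcTGTgctatggaac
Trav8d-2, chr14:53280322-53280348: ctgctgtgtacttcTGTgctacagatg
Trav14d-1, chr14:53093597-53093623: cagctacctacttcTGTgcagcaagtg
Trav14n-1, chr14:53404609-53404635: cagctacctacttcTGTgcagcaagtg
Trav11, chr14:53757290-53757316: ctgccacctacatcTGTgtggtgggcg
Trav11d, chr14:53062343-53062369: actgccacctacatcTGTgtggtgggc
Trav1, chr14:52666307-52666333: tgcctcatacctcTGTgctgtgaggga

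The recombination signal is a heptamer and a nonamer separated by a spacer of 23 bases. The letters CACAGTG, a 23-base spacer and ACAAAAACC were searched on the plus strand around the end of each V exon, and the best match that began with CAC was kept. A heptamer was found for 126 of the 130 genes, and 104 of them, 80.0% of the 130, had CACAGTG itself. The signals of the most counted gene, of Trav8d-2, of Trav10 and of the segments of the semi-invariant receptors are shown with the heptamer and the nonamer in capitals.
Trav16, chr14:53981163-53981201: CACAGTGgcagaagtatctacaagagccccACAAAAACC
Trav8d-2, chr14:53280349-53280387: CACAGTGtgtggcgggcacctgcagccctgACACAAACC
Trav10, chr14:53743744-53743782: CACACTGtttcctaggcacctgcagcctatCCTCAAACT
Trav1, chr14:52666334-52666372: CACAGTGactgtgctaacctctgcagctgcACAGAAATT
Trav11, chr14:53757317-53757355: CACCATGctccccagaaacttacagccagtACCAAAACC
Both letter groups of the Trav16 signal matched the searched letters at all 16 positions, and those of Trav10 matched at 11.

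Libraries held between 37467700 and 52922700 estimated counts, rounded. Psmb8 had between 8024 and 10790 counts in WT and between 59 and 73 in BIT libraries, and Psmb11 had 0 counts in each WT library and between 1226 and 1926 in BIT libraries. The library of WT replicate 3 went against its male label, with 66626 counts of Xist and 0 counts of each of 4 Y-linked genes. Part of the results below are therefore also given without it, but those of most single genes are not. The summed level of CD8 T cell markers was between 3827 and 4184 CPM (counts relative to the library total) in WT and between 3989 and 4222 CPM in BIT libraries. CD4 T cell markers summed to between 3.22 and 5.68 CPM over the 6 libraries. B cell markers, with all 5 genes tested, summed to between 320.0 and 359 CPM over the 6 libraries, and myeloid markers to between 42.3 and 70.3 CPM in WT and between 41.1 and 46.9 CPM in BIT libraries. The myeloid marker Itgax had 2.91, 3.58 and 20.6 CPM in WT libraries, the last in WT replicate 3. The part of such RNA in the differences below was not tested. Nothing in the labels says more of the replicates than that they are separate mice.

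All Trav genes together had 7928, 6745 and 4950 counts in WT libraries and 6549, 6299 and 5739 in BIT libraries. This was 149.8, 133 and 124 CPM in WT and 146, 149.7 and 153 CPM in BIT libraries, so that the groups overlapped and the lowest value was that of WT replicate 3. Such levels in sorted cells do not tell fewer cells that use a segment from less RNA of it per cell. Trac, the constant gene that every TCRα transcript contains, had 557, 485 and 472 CPM in WT and 575, 591 and 542 CPM in BIT libraries, which also overlapped. Per exonic base, the Trav counts came to 63.0, 64.7 and 62.0% of those of Trac in WT and to 59.9, 59.5 and 66.5% in BIT libraries.

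Between 107 and 111 of the 130 genes had a count above 0 in a library. Of the 130, 13 had 0 counts in all 6 libraries, 7 more never exceeded 3 counts, and 91 had enough counts to be tested, none of them a pseudogene. A count of 0 allowed a share of up to 0.0378% of the Trav counts in the deepest library and up to 0.0606% in that of WT replicate 3, limits that cover counting error only. The evenness of use, as the effective number of equally used genes from the Shannon entropy, was 68.1, 68.5 and 67.4 in WT and 67.2, 66.4 and 66.8 in BIT libraries. Each BIT value lay below each WT value, the nearest being those of WT replicate 3 and BIT replicate 1. This number was taken over single genes, so the division of reads between near-identical copies, described below, enters it. The difference in evenness was not tested. The 10 most counted genes of a library held between 31.7 and 32.6% of its Trav counts in WT and between 32.8 and 34.9% in BIT libraries.

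Most of the Trav RNA came from 6 families, and the mean share of each differed by less than 2 percentage points between the genotypes. Per exonic base, Trav6 had 15.5% of the Trav counts over all libraries, Trav16 14.5%, Trav14 12.7%, Trav7 9.97%, Trav12 8.96% and Trav3 7.5%. These families differ in size, since Trav6 had 15 genes, Trav7 14, Trav12 10, Trav14 9 and Trav3 8, whereas Trav16 had 3 genes. For each family the shares in the 3 mice of each genotype were compared by an exact two-sided permutation test, for which 3 mice against 3 cannot give a p below 0.1.

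Shares of the Trav16 family were 14.3, 13.7 and 15.1% in WT and 15.4, 15.6 and 15.7% in BIT libraries. All BIT values were above all WT values, with means of 14.4% ± 0.700 (SD, n = 3) and 15.5% ± 0.147 (SD, n = 3), a ratio of 1.08 and an exact permutation p of 0.1. Shares of the Trav6 family were 15.3, 15.2 and 14.8% in WT and 14.4, 12.8 and 13.2% in BIT libraries. Here all BIT values were below all WT values, with means of 15.1% ± 0.238 (SD, n = 3) and 13.5% ± 0.803 (SD, n = 3) and an exact permutation p of 0.1. The Trav7 family had shares of 9.95, 9.56 and 9.88% in WT and 9.42, 9.13 and 9.01% in BIT libraries, again without overlap and lower in BIT.

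The shares of the other large families overlapped. The Trav14 family held 12.8, 14.7 and 13.4% in WT and 12.6, 12.8 and 13.0% in BIT libraries, with an exact permutation p of 0.3. The Trav12 family held 9.62, 8.15 and 9.13% in WT and 10.1, 9.57 and 8.35% in BIT libraries, with an exact permutation p of 0.6. The Trav3 family held 8.10, 8.12 and 7.01% in WT and 7.27, 8.87 and 8.42% in BIT libraries, with an exact permutation p of 0.5.

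Among the smaller families, Trav13 and Trav4 had higher shares in all BIT than in all WT libraries, and Trav2 lower ones. Trav13 family shares were 4.82, 4.73 and 4.79% in WT and 5.50, 5.72 and 5.91% in BIT libraries, a ratio of 1.19. Trav4 family shares were 3.48, 3.34 and 3.25% in WT and 3.73, 4.41 and 3.97% in BIT libraries, a ratio of 1.2. Trav2, a family of 1 gene near the distal end, had shares of 0.593, 0.786 and 0.707% in WT and 0.473, 0.587 and 0.523% in BIT libraries, a ratio of 0.759. For each of these the exact permutation p was 0.1, the smallest that it can give.

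In all, 3 of 23 families were higher and 3 lower in BIT without overlap. Over the 16105 genes tested in the whole table, as shares of the library total, groups did not overlap for 12.8%, with 6.09% higher and 6.69% lower in BIT. Without WT replicate 3, the differences between the mean shares of BIT and WT were 1.57 percentage points for Trav16, -1.81 for Trav6, -0.571 for Trav7, 0.932 for Trav13, 0.629 for Trav4 and -0.161 for Trav2. Over the genes with at least 50% of their 100-base windows unique among Trav genes, the shares of Trav7, Trav13 and Trav2 did not overlap, while those of Trav16, Trav6 and Trav4 did, and the difference of Trav6 was then -0.278 percentage points with an exact permutation p of 0.5. The SD between WT mice, 0.700 percentage points for Trav16 and 0.045 for Trav13, can be set beside the SD of 0.434 and 0.264 that counting alone gives at the mean depth.

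**Figure D1:**
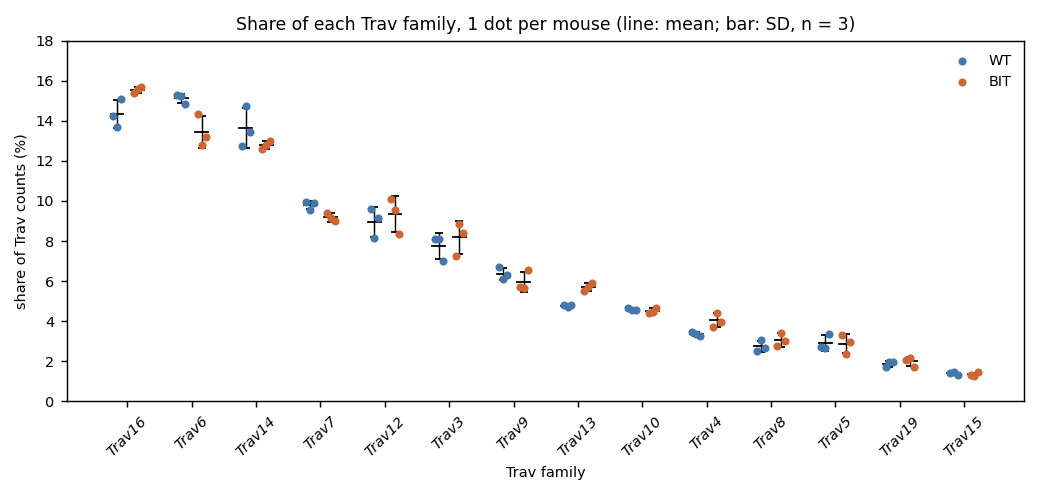
Share of the Trav counts (%) of the 14 most abundant families in each library, with 1 dot per mouse, WT in blue and BIT in orange, a line at the mean and a bar for the SD (n = 3). The BIT dots of Trav16, Trav13 and Trav4 sit above the WT dots, those of Trav6 and Trav7 sit below, and the other families overlap.

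The share test gives the composition of the Trav RNA, and the fit to the whole table gives its level. When the family sums replaced their genes in the table, 0 of the 19 families tested were called with limma-voom (quantile normalization, Benjamini-Hochberg adjustment over all rows, adjusted p below 0.05). At an unadjusted p below 0.05, 2 were higher and 0 lower in BIT, beside 681 and 689 of the 16033 rows of this fit. These were the Trav13 family, with a log2 fold change of 0.42 (SE 0.17) and an adjusted p of 0.555 by limma-voom, and the Trav16 family, with 0.25 (SE 0.10) and 0.558. With TMM normalization and with edgeR's quasi-likelihood test 2 families, and with DESeq2 1, had an unadjusted p below 0.05, and 0 were called by any of them. Over the 16033 rows, 1326, 1190 and 1157 had such a p with TMM normalization, edgeR and DESeq2. Without WT replicate 3, 0 families had an unadjusted p below 0.05, beside 1926 of 16361 rows. The Trav6 family, whose share was lower in each BIT library, had a log2 fold change of -0.04 (SE 0.12) in level.

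The plain, D and N copies contributed in much the same proportions in both genotypes. Plain genes held 50.4, 51.8 and 50.9% of the Trav counts in WT and 52.4, 51.4 and 50.7% in BIT libraries, with an exact permutation p of 0.6. N copies held 28.1, 27.6 and 28.2% in WT and 25.6, 26.0 and 28.1% in BIT libraries, with an exact permutation p of 0.2. D copies held 21.4, 20.7 and 20.9% in WT and 22.0, 22.6 and 21.2% in BIT libraries, with an exact permutation p of 0.2. The mean shares of BIT minus WT differed by -1.40 percentage points for N and 0.942 for D copies. Those of the Trav12 family alone differed by -1.41 for its N and 0.963 for its D copies. That family holds the near-identical pair Trav12d-3 and Trav12n-3, described below. For each of the 3 kinds of copy the groups overlapped. Of the 3 copy sums, 0 were called or had an unadjusted p below 0.05 by limma-voom with any normalization, by edgeR or by DESeq2. The log2 fold changes were 0.10 (SE 0.10) for plain, 0.02 (SE 0.10) for N and 0.19 (SE 0.11) for D copies.

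The V exons of copies with the same number are nearly alike, which limits how well their reads can be told apart. Over 34 such pairs of a D and an N gene the median identity was 100% and 19 were identical, while over 38 plain and D pairs it was 97.5% and over 32 plain and N pairs 97.1%. Of the 130 gene models, 70 had at least 50% of their 100-base windows to themselves and 40 had none. The 70 genes held between 59.2 and 62.8% of the Trav counts of a library. The counting tool, RSEM, splits reads among all the genes they fit, and 55.1% of the values above 0 of the 70 genes were whole numbers, against 23.2% for the other genes.

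The copies lie in order along the chromosome, with the D genes distal to the N genes. Of the 130 genes in order of position, the 43 nearest to Traj held 40.5, 40.2 and 40.0% of the Trav counts in WT and 42.6, 42.7 and 42.1% in BIT libraries. The groups did not overlap, with means of 40.2% ± 0.232 (SD, n = 3) and 42.4% ± 0.311 (SD, n = 3) and an exact permutation p of 0.1. Counting alone gives an SD of 0.606 percentage points for the WT value, and without WT replicate 3 the difference was 2.09 percentage points against 2.19 with it. The 44 genes in the middle held 36.97, 37.6 and 38.3% in WT and 35.8, 33.6 and 36.3% in BIT libraries, which did not overlap either and were lower in BIT. The 43 distal genes held 22.5, 22.2 and 21.7% in WT and 21.6, 23.8 and 21.6% in BIT libraries, which overlapped.

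The proximal difference was also present over the genes with at least 50% unique windows, at 2.00 percentage points with no overlap. Over these genes the middle difference was -0.628 percentage points with overlap, and the distal genes were lower in BIT by 1.37 percentage points with an exact permutation p of 0.1. The restriction keeps proximal genes such as Trav6-7-dv9 and leaves out its copies Trav6d-7 and Trav6n-7, so reads that fit both can still enter. The part of such reads in the proximal difference was not tested. The middle and distal values over all genes contain Trav12n-3 and Trav12d-3, described below, whose differences had opposite signs.

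**Figure D2:**
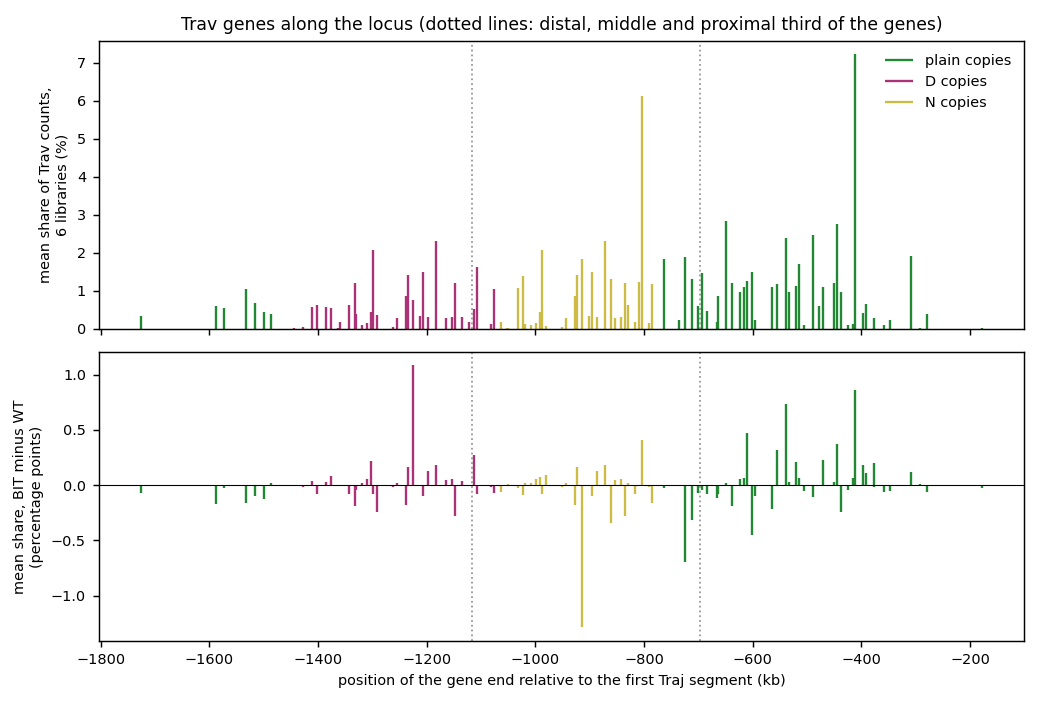
Each vertical line is 1 Trav gene at its distance in kb from the first Traj segment, with plain, D and N copies in 3 colours. The upper panel gives its mean share of the Trav counts (%) over 6 libraries, with Trav16 at 7.21% and Trav16n at 6.11% above all others, and the lower panel the difference of mean shares between BIT and WT in percentage points, with the largest opposite values at Trav12d-3 and Trav12n-3.

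A mean share of at least 2% was reached by 10 genes, which together held 32.6% of the Trav counts. Trav16, in the proximal part of the locus at chr14:53980561-53981162, had the largest, with 6.65, 6.35 and 7.35% in WT and 7.79, 7.45 and 7.70% in BIT libraries. All BIT values were above all WT values, with a ratio of 1.13, and the log2 fold change in level was 0.33 (SE 0.13, unadjusted p = 0.0339, adjusted p = 0.553 by limma-voom). Its copy Trav16n, with a V exon 97.7% identical, had 6.14, 6.00 and 5.59% in WT and 5.53, 6.76 and 6.67% in BIT libraries, which overlapped. Per exonic base Trav16 and Trav16n had 6.83 and 5.86% of the Trav counts and no other gene had more than 2.90%.

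The next genes by share were Trav10 with a mean of 2.84%, Trav6-7-dv9 with 2.76%, Trav3-3 with 2.47% and Trav12-2 with 2.40%. Trav6-7-dv9, whose symbol marks it as a segment that can also be joined in the δ chain, had 2.41, 2.52 and 2.80% in WT and 2.82, 3.21 and 2.82% in BIT libraries. Its values did not overlap, by a margin between the highest WT and the lowest BIT value that was far less than the SD of 0.199 percentage points between WT mice. Its V exon is 97.9% identical to those of its copies Trav6d-7 and Trav6n-7. Those copies, summed, had 2.56, 2.50 and 2.96% in WT and 2.03, 2.53 and 1.75% in BIT libraries, with overlap and a lower mean in BIT. How reads were divided between Trav6-7-dv9 and these copies was not tested. Trav10, Trav3-3 and Trav12-2 overlapped. The other 4 were the identical pairs Trav3d-3 and Trav3n-3, with 2.31% each, and Trav14d-1 and Trav14n-1, with 2.09% each.

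No Trav gene passed the test between the genotypes. Of the 91 tested, 0 were called by limma-voom with quantile normalization at an adjusted p below 0.05, where 0.137% of the 16105 genes were called. At an unadjusted p below 0.05, 9 were higher and 1 lower in BIT, beside 4.25 and 4.32% of all genes tested. With TMM normalization these were 5 and 1, beside 3.64 and 4.64%. With edgeR's quasi-likelihood test they were 5 and 1, beside 571 and 627 of the 16105 genes, and with DESeq2 2 and 1, beside 581 and 580. Of the Trav genes 0 were called by each, where TMM normalization, edgeR and DESeq2 called 16, 14 and 125 of all genes. Without WT replicate 3 there was 1 higher and 1 lower of 97 Trav genes tested, beside 869 and 1061 of 16502 genes. Of these Trav genes 0 were called, where 37 of all genes were.

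How many Trav genes lay above 0 varied with the scaling and with 1 library. The log2 fold change was above 0 for 72 of the 91 genes and for 52.3% of all genes, with medians of 0.24 and 0.01. With TMM normalization 56 were above and 35 below 0, with a median of 0.08, and without WT replicate 3 these were 47 and 50, with a median of -0.02. As shares of the library total, 11 of the 91 were higher and 2 lower in BIT without overlap, beside 6.09 and 6.69% of all genes tested.

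As shares of the Trav counts, 11 of the 130 genes were higher and 8 lower in BIT without overlap. Over all genes tested, as shares of the library total, 6.09% were higher and 6.69% lower. The 130 include 39 genes that were not tested, among them 13 at 0 counts in all libraries. These counts are therefore not on the same terms as that background, and the genes named here are a description. The 8 lower ones, named after their values were seen, were Trav2, Trav6-3, Trav7-3, Trav7-6, Trav7n-4, Trav9-1, Trav9n-4 and Trav12n-3. Trav6-3 had 2.13, 2.52 and 2.06% in WT and 2.05, 1.19 and 1.38% in BIT libraries, but only 33.1% of its windows were unique. Summed with Trav6d-3, whose V exon is 98.7% identical, it had 2.14, 2.71 and 2.06% in WT and 2.21, 1.19 and 1.38% in BIT libraries, which overlapped. Trav9-1 had 0.263, 0.237 and 0.227% in WT and 0.0916, 0.168 and 0.116% in BIT libraries. Of the Trav7 family, 3 genes were in this group. The V exon of Trav7-3 is 99.3% identical to that of Trav7d-3, which had 0.754, 0.539 and 0.400% in WT and 0.652, 0.451 and 0.692% in BIT libraries, with overlap. That of Trav7n-4 is 97.9% identical to that of Trav7-4 and 98.3% to that of Trav7d-4, and both of these overlapped. How reads were divided among these Trav7 copies was not tested. Trav13-1, also named after its values were seen, had 1.02, 1.02 and 1.01% in WT and 1.48, 1.91 and 1.09% in BIT libraries. Its SD was 0.0063 percentage points in WT, where counting alone gives 0.124, and 0.407 in BIT, where counting gives 0.154. The spread of 3 WT values below the counting SD is no measure of the variation between WT mice.

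The 10 tested genes with the smallest unadjusted p included 5 with at least 50% unique windows. Trav16 was described above. Trav8d-2, at chr14:53279885-53280348 and with only unique windows, had 34, 25 and 16 counts in WT and 43, 42 and 36 in BIT libraries. Its shares were 0.429, 0.371 and 0.323% in WT and 0.657, 0.667 and 0.627% in BIT libraries, with no overlap and a ratio of 1.74. The SD of 0.0529 percentage points in WT and 0.0205 in BIT lay below the 0.0755 and 0.102 that counting alone gives. The log2 fold change was 1.08 (SE 0.40, unadjusted p = 0.0241, adjusted p = 0.539 by limma-voom), and the adjusted p ranged from 0.208 to 0.9995 over 13 alternatives. The D copy of this segment shares its number with the plain Trav8-2, to which its V exon is 94.4% identical.

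Trav13-4-dv7 and Trav3-4 both lie in the proximal part of the locus. Trav13-4-dv7 had 0.324, 0.282 and 0.352% in WT and 0.436, 0.508 and 0.571% in BIT libraries. Trav3-4 had 0.290, 0.104 and 0.202% in WT and 0.450, 0.460 and 0.296% in BIT libraries, where the lowest BIT value was just above the highest WT value. Their log2 fold changes were 0.99 (SE 0.35) and 1.55 (SE 0.58), with adjusted p-values of 0.535 and 0.547 by limma-voom. Trav14-3 overlapped in share, with 0.418, 0.522 and 0.855% in WT and 0.642, 0.608 and 0.884% in BIT libraries.

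Trav13d-1 had 0.369, 0.420 and 0.260% in WT and 0.622, 0.517 and 0.561% in BIT libraries. Trav15d-2-dv6d-2 and Trav15n-2 have identical models and identical values, 0.252, 0.222 and 0.242% in WT and 0.290, 0.357 and 0.444% in BIT libraries, and count as 1 measurement. Summed, the pair had 40, 30 and 24 counts in WT and 38, 45 and 51 in BIT libraries, with a log2 fold change of 0.88 (SE 0.33) and an adjusted p of 0.546 by limma-voom. Trav13d-1 and Trav13-4-dv7 end in the same 27 bases of the V exon, shown above.

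**Figure D3:**
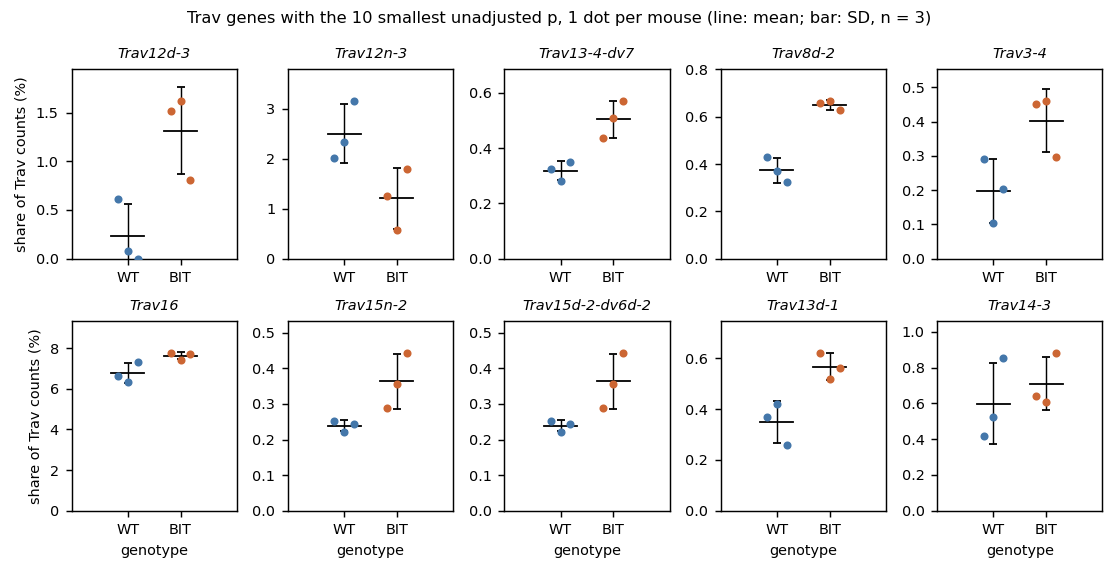
Share of the Trav counts (%) of the 10 tested genes with the smallest unadjusted p, 1 panel per gene with its own axis from 0, 1 dot per mouse, a line at the mean and a bar for the SD (n = 3). Trav8d-2 shows groups that are apart with little spread, Trav12d-3 and Trav12n-3 differ in opposite directions, and Trav14-3 overlaps.

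The smallest unadjusted p-values belonged to a pair of copies. Trav12d-3, at chr14:53167246-53167739, had 48.8, 5.03 and 0 counts in WT and 99.5, 102 and 46.1 in BIT libraries. Trav12n-3, at chr14:53478202-53478701, had 159, 157 and 156 counts in WT and 81.6, 36.2 and 103 in BIT libraries. The log2 fold changes were 4.14 (SE 1.177, unadjusted p = 0.00678, adjusted p = 0.457 by limma-voom) for the D copy and -0.91 (SE 0.31, unadjusted p = 0.0154, adjusted p = 0.526 by limma-voom) for the N copy. The value of the D copy rested on single WT libraries, since it was 2.68 without WT replicate 3, which had 0 counts, and 5.87 without WT replicate 1.

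The model of Trav12d-3, with 347 bases, lies whole inside that of Trav12n-3, with 353 bases. The N model differs only in 6 more bases at its 5′ end, and 6 of its 254 windows are unique to it. The starts of both models are given with the additional bases in capitals.
Trav12n-3, chr14:53478202-53478225: CTGAACatgcgtcctgtcacctgc
Trav12d-3, chr14:53167246-53167263: atgcgtcctgtcacctgc
Summed, the pair had 208, 162 and 156 counts in WT and 181, 138 and 149.5 in BIT libraries. The sum had shares of 2.62, 2.40 and 3.15% in WT and 2.76, 2.19 and 2.60% in BIT libraries, which overlapped, with a log2 fold change of 0.10 (SE 0.21) and an adjusted p of 0.915 by limma-voom. The part of the division of shared reads in the differences of the single genes was not tested apart from this sum.

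Other pairs of this kind showed how the deposited values split. All 17 pairs with identical models had equal values in every library. Trav7d-6 had 0, 5.19 and 41 counts in WT and 0, 63.5 and 0 in BIT libraries, where its longer copy Trav7n-6 had 69.8, 67.9 and 0 in WT and 69.2, 0 and 51.2 in BIT libraries. Trav7d-2 was at 0 counts in every library, beside 97 to 129 counts of Trav7-2, whose model is shorter by 1 base. When genes that share at least 95% of their windows were joined, 108 sequence groups remained, of which 79 were tested. Of the groups tested, 8 were higher and 7 lower in BIT without overlap as shares of the Trav counts, and 0 of the 79 were called by limma-voom. Over all genes tested, as shares of the library total, 12.8% did not overlap.

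**Figure D4:**
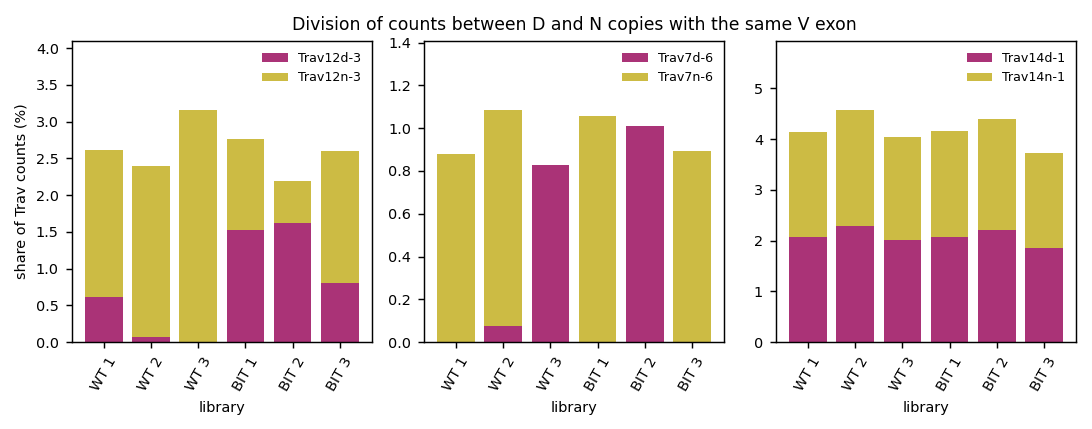
Stacked bars from 0 give, for 3 pairs of a D and an N copy with the same V exon, the share of the Trav counts (%) of each copy in the 3 WT and 3 BIT libraries. The division differed between libraries for Trav12d-3 and Trav12n-3 and for Trav7d-6 and Trav7n-6 with bars of similar height, and the identical models Trav14d-1 and Trav14n-1 were divided equally.

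Of the segments of semi-invariant receptors, Trav1 and the Trav11 family each made up under 1% of the Trav counts of a library. Trav1, the segment of mucosal-associated invariant T cells and the most distal Trav gene, had 29, 18 and 23 counts in WT and 13, 18 and 23 in BIT libraries. Its shares were 0.366, 0.267 and 0.465% in WT and 0.199, 0.286 and 0.401% in BIT libraries, which overlapped. Trav11, the segment of invariant NKT cells, was at 0 counts in every library, but its model holds that of Trav11d and 1 more base. Trav11d had 24, 41 and 17 counts in WT and 28, 15 and 26 in BIT libraries, and Trav11n, a pseudogene, had between 4 and 16 counts. The Trav11 family held 0.441, 0.741 and 0.424% in WT and 0.504, 0.302 and 0.732% in BIT libraries. Traj18, the joining segment of these receptors, was at 0 counts, but it has 66 bases, fewer than a read, and 59 of the 60 Traj genes in the table were at 0 in every library, so that this value says little about such cells. The sum of 4 NKT and MAIT cell markers was between 19.0 and 20.1 CPM in WT and between 15.8 and 17.2 CPM in BIT libraries, and nearly all of it was Cd160, which other T cells also express, with 17.3, 18.5 and 18.05 CPM in WT and 14.6, 15.1 and 15.3 CPM in BIT libraries. The other measured markers Klrb1c and Zbtb16 overlapped.

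By classes that do not follow the families, most shares overlapped between the genotypes. The 10 genes whose symbols also name a δ chain segment held between 7.41 and 8.83% in WT and between 8.20 and 8.87% in BIT libraries. Pseudogenes held between 0.419 and 0.456% in WT and between 0.233 and 0.693% in BIT libraries. Genes with the heptamer CACAGTG held between 89.2 and 89.9% in WT and between 88.9 and 89.7% in BIT libraries. Of the other heptamers, the 5 genes with CACGGTG, among them Trav15d-2-dv6d-2 and Trav15n-2 described above, did not overlap, with 0.808, 0.757 and 0.829% in WT and 0.935, 0.919 and 1.14% in BIT libraries and an exact permutation p of 0.1. Markers of γδ T cells, of which 5 of 8 were in the table under the names used, summed to between 5.66 and 6.72 CPM in WT and between 5.25 and 6.17 CPM in BIT libraries.

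The other genes of the receptor and of recombination did not pass the test. Of 10 TCR chain, CD3 and CD8 coreceptor genes 0 were called, with a median log2 fold change of -0.14 beside 0.01 over all genes. Of these 10 genes, 3 did not overlap in CPM, all lower in BIT, beside 6.69% of all genes tested. These 3 were named after their values were seen. The TCRβ constant gene Trbc1 had 205, 238 and 179.8 CPM in WT and 165, 151 and 149 CPM in BIT libraries, with a log2 fold change of -0.45 (SE 0.14) and an adjusted p of 0.503 by limma-voom. The CD3 chain genes Cd3g and Cd247 had log2 fold changes of -0.34 (SE 0.11) and -0.24 (SE 0.08), each with an adjusted p of 0.531 by limma-voom, whereas those of Trac, Cd3e and Cd8b1 were 0.13, 0.10 and 0.12 with overlap. Of 12 genes of V(D)J recombination, 10 were tested and 0 were called, with a median of 0.03. In CPM, Dntt was lower and Xrcc5 higher in BIT without overlap, beside 6.69 and 6.09% of all genes tested. Both were named after their values were seen. Rag1 and Rag2, which encode the recombinase, had at most 1 and 0 counts in a library. Dntt, the transferase that adds bases at the junctions, had 354, 386 and 189 counts in WT and 99, 87 and 104 in BIT libraries. The log2 fold change was -1.38 (SE 0.31) with an adjusted p of 0.312 by limma-voom, and for Xrcc5, a subunit of the end-joining factor Ku, the adjusted p was 0.783.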

How the data were processed

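Libraries of CD4-CD8+ TCRβhigh T cells, 3 WT and 3 BIT, were grouped by the sample labels. Each deposited value is the estimated count of a gene in a library. The authors made it, according to the submitters' processing notes, with bcl2fastq, cutadapt 1.18, STAR 2.7.0f and RSEM 1.3.1 on GRCm39 and Gencode M38, from paired reads of 100 bases after removal of ribosomal RNA. The strand setting of the counting is not given in the sources used here. Library totals lay between 37467700 and 52922700 counts, and Trav totals between 4950 and 7928.

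Positions, exons and gene types were read from Gencode M39, also on GRCm39, which held 130 of the 130 identifiers under the same symbol. Shares of the Trav counts were compared by exact two-sided permutation tests, with a smallest p of 0.1. For levels, the counts were rounded, 16105 genes passed edgeR's filterByExpr (version 4.0.16), and the whole table was fitted by voom, lmFit and eBayes of limma 3.58.1 after quantile normalization in R 4.3.3, with Benjamini-Hochberg adjustment over all rows, and called at an adjusted p below 0.05. The script was tested on simulated data.

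Genes were named when their mean share was at least 2%, when they were called, when they were among the 10 smallest unadjusted p-values, or as Trav1 and Trav11. The 6 most abundant families and families without overlap were given in full. Members and lists were chosen with earlier results of these data known. As alternatives, DESeq2 1.42.0, the quasi-likelihood test of edgeR and TMM normalization replaced the fit, low counts were kept or a mean of at least 1 CPM was required, replicate numbers entered as a block, and mice were left out in turn. Shares were also taken from counts per exonic base, from families with all 3 kinds of copy, and from genes with at least 50% unique windows of 100 bases. A batch term for replicate 3, replicates 1 and 2 alone, and sums over near-identical genes (at least 95% of windows shared) were added after seeing the data.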

Additional observations from a re-analysis of the deposited data

How the results depend on the processing

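The number of Trav genes, families and copy sums called was 0 under all alternatives, including each mouse left out, replicates 1 and 2 alone and replicate 3 as a batch. Fits with 2 mice in a group have less power, so these counts say little on their own. Replicate numbers are shared by WT and BIT mice, but the correlation of deviations from the group means was 0.291, 0.0564 and 0.526 for numbers 1, 2 and 3, so the numbers were not taken to pair the mice. With the replicate block, 0 Trav genes, 0 families and 0 copy sums were called. At an unadjusted p below 0.05, 11 Trav genes were higher and 1 lower, beside 952 and 1053 of the 16105 genes in that fit and 685 and 695 without the block. With that block on shares, 9 families moved in 1 direction in all 3 numbers. The 6 families without overlap must do so, so this count could not fall below 6. Of the libraries, 2 of 3 WT and 1 of 3 BIT correlated best with their own number. With a mouse left out, between 6 and 9 families did not overlap. Leaving a mouse out cannot create an overlap, so these counts are no check of stability.

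The difference in share reversed, in percentage points, over genes with at least 50% unique windows for the Trav3 family (-0.0828), D copies (-0.0796) and the distal genes (-1.37). With a mouse left out it ranged from -0.0352 to 0.871 for the Trav12 family, from -0.00272 to 0.863 for plain copies and from -0.527 to 0.559 for distal genes, where it was -0.0376 without WT replicate 3. It ranged from 2.08 to 2.37 for proximal genes, from -2.91 to -1.56 for middle genes, from 0.592 to 1.31 for D copies and from -2.17 to -0.925 for N copies. The cause was not tested. Depth limits single genes, since 20 of 130 never exceeded 3 counts.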

Other observations

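The composition of the Trav RNA can also be read as the percent of the shares that differs between 2 libraries. Over single genes this was between 9.38 and 11.1% for the 3 pairs of WT libraries, between 9.17 and 12.2% for the 3 pairs of BIT libraries and between 9.41 and 14.5% for the 9 pairs of a WT and a BIT library. Over families it was between 3.04 and 3.98%, between 3.34 and 4.52% and between 3.19 and 6.70%. The values for pairs of different genotype reached higher but overlapped those within a genotype, and they were not tested, since the pairs share libraries.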
